A study of Mus musculus with 6 samples.

Results

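The antimicrobial and protective proteins of tears were followed through 10 genes chosen by name, Lpo, Ltf, Lyz2, Pigr, Car6, Wfdc12, Wfdc18, Pip, Azgp1 and Clu, out of 50686 genes in the deposited table. RNA came from lacrimal glands of adult mice aged 13 weeks, in 2 groups of 3 biological replicates. One group was wild-type and the other, titled Tabby, had the genotype Eda-/-, and all 6 mice carried the same C57BL/6 strain label and received no treatment that the labels name. The sources used here do not give the allele, the sex of the mice or the kinship of the groups. The lacrimal gland is the exocrine gland that makes the watery part of tears, and Eda codes for ectodysplasin A, a TNF-like ligand whose receptor Edar activates NF-kB while skin appendages and glands form.

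Tears protect the surface of the eye with proteins that the gland's acinar and duct cells release. Peroxidase, lysozyme and lactoferrin act on microbes directly, and the polymeric immunoglobulin receptor carries IgA from plasma cells across the epithelium. Protease inhibitors with WAP domains, carbonic anhydrase and extracellular chaperones are also secreted.

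Each library held 11894395 to 15700899 counts, and expression is given as CPM, counts scaled to the same library size, with factors from the trimmed mean of M-values (TMM). The gene named in the genotype, Eda, was counted 41, 48 and 42 times in wild-type libraries 1 to 3 and 2, 0 and 0 times in mutants 1 to 3. Wild-type glands thus had 47.0 times as much after scaling, and the exact binomial 95% bounds, for counting error alone, were 12.8 and 392. All 15 lacrimal acinar markers were tested, and 4 rose and 4 fell, where 13.1% of all tested genes passed in either direction. Of these 15 markers 8 had log2 fold changes below 0, with a median of -0.04. With library totals 2 were higher and 7 lower, beside 247 and 4343 of all 13178 tested genes. Among the acinar markers that passed, Esp4 fell by 2.64 on the log2 scale (edgeR adjusted p = 7.46e-06). Mucl2, Scgb2b24 and Itpr3 rose by 1.49, 0.50 and 0.43. Itpr3 did not pass with library totals (0.15, edgeR adjusted p = 0.186). The water channel gene Aqp5, 1 of the markers that did not pass, was at 95.1 to 101 CPM in wild-type and 102 to 123 in mutants. Of 19 salivary markers in the table, 5 had 0 counts in every library (Smr3a, Smr2, Klk1b22, Dcpp3 and Gm7257), and Klk1, Prb1 and Bpifa2 had at most 2 counts in any library. The list summed to 2515 to 2849 CPM in wild-type and 2695 to 2878 in mutants, nearly all of it from Sval2, Bhlha15 and Egf. Of 4 tested salivary markers 1 rose, Bhlha15, which is also an acinar gene. With library totals Bhlha15 did not pass (log2 0.08, edgeR adjusted p = 0.426), and 0 salivary markers were higher and 1 lower. Library wild-type 3 stood apart from the other wild-type libraries for some of the genes below. Its part is given for Lyz2, Car6 and Clu and for some of the other genes and lists.

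All 10 genes passed the filter on low counts. One rose in the Eda-/- glands, Pip, and one fell, Azgp1, while the other 8 did not pass (edgeR quasi-likelihood test, p adjusted by Benjamini-Hochberg, threshold 0.05). Across all 13178 tested genes 13.1% passed, 6.21% higher and 6.90% lower. The 3 mutant libraries lay outside the range of the 3 wild-type libraries for 5 of the 10 genes, 2 higher (Pip and Car6) and 3 lower (Azgp1, Lyz2 and Clu). The same held for 32.2% of all tested genes, 15.9% with mutants higher and 16.2% with mutants lower. The median log2 fold change was 0.20 over the 10 genes and 0.003 over all tested genes. In whole tissue, fewer cells of a type and less RNA per cell cannot be told apart.

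The mucin-like gene Mucl2 took 4.23% ± 0.137 of wild-type counts and 9.85% ± 2.52 of mutant counts (SD, n = 3 each). When library totals replaced TMM the median gene lay at -0.28 on the log2 scale, and 247 genes were higher and 4343 lower, against 819 and 909 with TMM. The fold changes below are relative to the median gene. For the 10 genes the value with library totals is given where it ends a call or turns a direction. For the other genes it is given only in part, and small fold changes among them may turn.

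**Figure D1:**
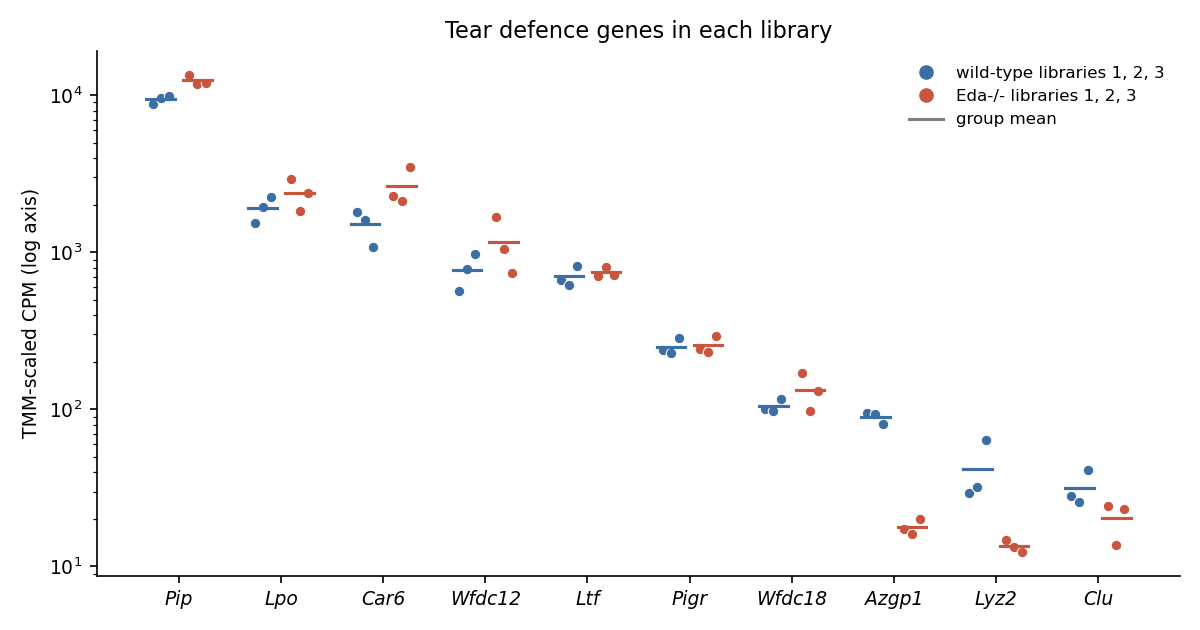
Expression of the 10 genes in each library, as TMM-scaled CPM on a log axis, with blue points for the 3 wild-type and red points for the 3 Eda-/- libraries and bars for group means. Azgp1, Lyz2 and, by a small margin, Clu are lower in all 3 mutants, Pip and Car6 are higher in all 3, and the points of Ltf and Pigr intermix.

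Azgp1 encodes zinc-alpha-2-glycoprotein, a secreted protein with an MHC class I-like fold. The gene (ENSMUSG00000037053.6) lies on GRCm38 chromosome 5 at 137981520 to 137990233, plus strand. It had 94.2, 93.0 and 80.8 CPM in wild-type libraries 1, 2 and 3 and 17.4, 16.2 and 20.1 in mutants 1, 2 and 3. Every mutant was far below every wild-type library, and spread within a group was small, with a coefficient of variation of 8.31% in wild-type and 11.1% in mutants. Azgp1 fell 4.98-fold (log2 fold change -2.32, SE 0.096, 95% interval -2.52 to -2.11, edgeR adjusted p = 1.58e-10). It passed under each of the 19 alternatives run, with log2 values from -2.59 to -2.25. Per exon base, its level ranked 269 among all genes in wild-type and 1474 in mutants. Of the neighbours, Gjc3 at 18.4 kb had 1 to 3 counts per library and Zkscan1 at 94.9 kb had a log2 fold change of 0.04 (edgeR adjusted p = 0.815).

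Because Azgp1 and Pip are the genes that passed, their promoters are shown, from 250 bases before to 50 after the start, as RefSeq gives them for GRCm38.p6. Capitals mark matches on either strand to TATAAA (the core promoter box), AGGAAG (a core bound by ETS factors such as Ehf and Elf5), TGTTCT (a half-site of androgen and glucocorticoid receptors) or the NF-kB consensus.
Azgp1, chr5:137981271-137981570, plus strand: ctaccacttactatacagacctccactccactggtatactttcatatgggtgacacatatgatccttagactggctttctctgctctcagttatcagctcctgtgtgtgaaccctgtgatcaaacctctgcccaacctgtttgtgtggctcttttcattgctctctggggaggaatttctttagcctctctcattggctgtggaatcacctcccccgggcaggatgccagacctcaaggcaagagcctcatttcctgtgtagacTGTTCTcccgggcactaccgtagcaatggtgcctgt
Pip, chr6:41847299-41847598, plus strand: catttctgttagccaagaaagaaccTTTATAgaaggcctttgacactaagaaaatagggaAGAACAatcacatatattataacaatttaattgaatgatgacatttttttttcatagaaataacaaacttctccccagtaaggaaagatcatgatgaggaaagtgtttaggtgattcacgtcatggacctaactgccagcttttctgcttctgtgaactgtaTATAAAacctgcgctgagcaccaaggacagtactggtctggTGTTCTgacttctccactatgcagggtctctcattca
The Pip promoter had TATAAA on the plus strand 28 to 23 bases before the start and again on the minus strand 225 to 220 bases before it. It had TGTTCT on the minus strand 190 to 185 bases before the start and on the plus strand at transcribed bases 14 to 19. Azgp1 had TGTTCT on the plus strand at transcribed bases 15 to 20 and none of the other motifs. Neither sequence nor any of the 9 members' promoters in the table had a match to the NF-kB consensus, which was present in 8.46% of 32851 promoters of the same length. TATAAA was present in 13.6% of them, AGGAAG in 35.4% and TGTTCT in 19.0%. The 4 motifs do not overlap one another in these windows, and a match is a description of the letters only.

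Pip encodes prolactin-induced protein, an abundant secreted protein of exocrine glands that binds CD4, fibronectin and bacteria. The gene (ENSMUSG00000058499.9) lies on chromosome 6 at 41847535 to 41852065, plus strand. It had 8846, 9664 and 9946 CPM in wild-type and 13539.6, 11762 and 12026 in mutants. The lowest mutant exceeded the highest wild-type library. Pip rose 1.31-fold (log2 0.39, SE 0.086, 95% interval 0.21 to 0.57, edgeR adjusted p = 0.00733). As a share of all counts it held 1.05% ± 0.0908 in wild-type and 1.13% ± 0.119 in mutants (SD, n = 3 each), and these shares overlapped. With library totals the log2 fold change was 0.11 and did not pass (edgeR adjusted p = 0.345), so the rise is a rise relative to the median gene. It passed with each library left out in turn, with adjusted p from 0.0118 to 0.0322.

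Sval2, a seminal vesicle antigen-like gene, starts 0.9 kb past the end of Pip on the same strand. It had 2055, 2374 and 2199 CPM in wild-type and 2284, 2098 and 2334 in mutants, values that intermixed (log2 0.02, SE 0.084, edgeR adjusted p = 0.911). With library totals the sign of Sval2 turned and it passed as lower in mutants (log2 -0.26, edgeR adjusted p = 0.0284). The ratio of Pip to Sval2 within a library, which does not depend on the scaling, was 4.31, 4.07 and 4.52 in wild-type and 5.93, 5.61 and 5.15 in mutants. That ratio was chosen after the values were seen, and all 3 mutants lay above the wild-type range.

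**Figure D2:**
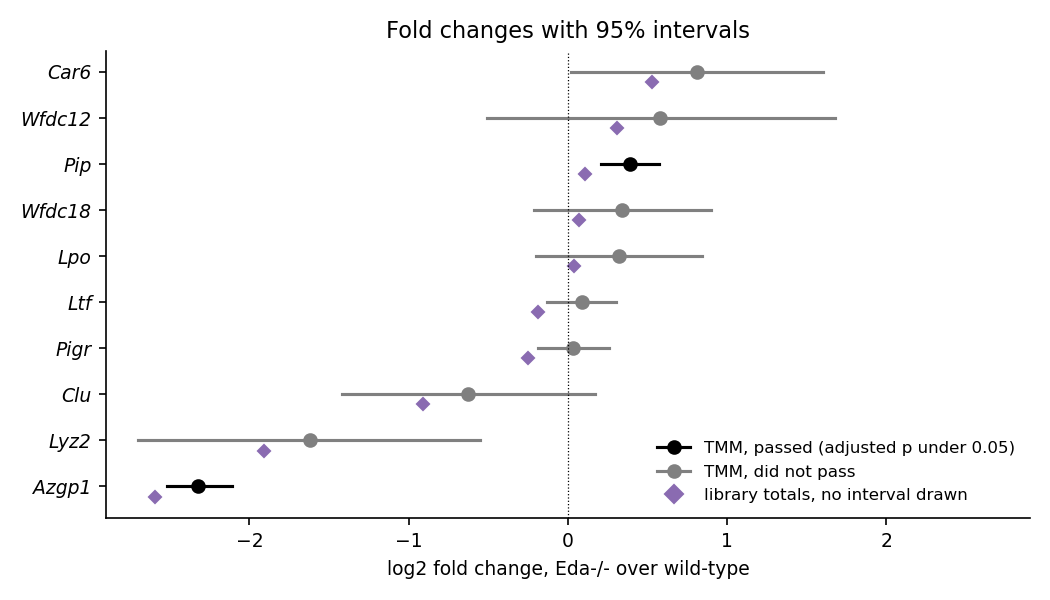
Log2 fold changes of Eda-/- over wild-type for the 10 genes, with 95% intervals from edgeR after TMM scaling, black where the gene passed and grey where it did not, and diamonds for the value with library totals. Azgp1 stands at -2.32 and Pip at 0.39, and all diamonds lie to the left of their circles.

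Lyz2 encodes the lysozyme of macrophages and other myeloid cells, an enzyme that cuts bacterial cell walls. The gene (ENSMUSG00000069516.8) lies on chromosome 10 at 117277331 to 117282321, minus strand. It had 29.2, 32.0 and 63.5 CPM in wild-type and 14.7, 13.3 and 12.4 in mutants. All mutants were below all wild-type libraries, and wild-type 3 was the highest of the 6. The log2 fold change was -1.62 (SE 0.40, 95% interval -2.70 to -0.55), which did not pass in edgeR (adjusted p = 0.0797). It passed in DESeq2 (adjusted p = 0.000457) and limma-voom (adjusted p = 0.00498). Without wild-type 3 it was -1.18 and passed (edgeR adjusted p = 1.75e-06), and without any other single library it did not pass, with adjusted p from 0.0727 to 0.217.

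How the counting split reads between Lyz2 and its neighbour Lyz1, the Paneth cell lysozyme, is not stated. Lyz1 lies 5.5 kb away on the same strand. The coding sequences have 447 bases each and are 95.1% identical, differing at 22 positions, and 32.8% of the 31-base words of Lyz2 transcripts also occur in Lyz1. The longest stretch the coding sequences share runs over 118 bases, from coding base 276 to 393 of Lyz2. A read lying wholly inside it cannot by itself name its gene.
Shared by Lyz2 and Lyz1, coding strand: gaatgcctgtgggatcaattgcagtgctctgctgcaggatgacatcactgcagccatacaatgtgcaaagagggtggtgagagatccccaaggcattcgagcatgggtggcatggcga
The 60 coding bases with the most differences, bases 61 to 120, can name it. Capitals mark the 9 positions that differ.
Lyz2: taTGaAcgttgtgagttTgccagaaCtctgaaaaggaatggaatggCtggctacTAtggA
Lyz1: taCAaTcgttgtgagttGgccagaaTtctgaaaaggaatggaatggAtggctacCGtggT
Lyz1 had 2.43, 3.17 and 7.11 CPM in wild-type and 2.44, 1.31 and 1.32 in mutants, with wild-type 3 highest again (log2 -1.32, edgeR adjusted p = 0.148). Without wild-type 3 the log2 value of Lyz1 was -0.72. The ratio of Lyz2 to Lyz1 was 8.93 to 12.1 in wild-type and 6.04 to 10.1 in mutants, and these ranges overlapped.

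Macrophage markers moved in the same libraries as Lyz2. Of 20 tested markers 8 fell and 0 rose in edgeR. In DESeq2 13 fell and in limma-voom 10, and none rose in either. With library totals 20 fell, where 4343 of all tested genes were lower. All 20 had log2 fold changes below 0 and an unadjusted edgeR p under 0.05. Their median was -1.23 against 0.003 over all tested genes, of which 6.90% fell. Without wild-type 3 the median of the markers was -0.95. Added up, these 20 genes reached 105, 115 and 199 CPM in wild-type libraries 1 to 3 but 65.6, 51.8 and 52.7 in the mutants, highest in wild-type 3 as for Lyz2. Csf1r, the receptor for macrophage colony-stimulating factor, fell by 1.01 on the log2 scale (edgeR adjusted p = 0.00591). The signalling adaptor gene Tyrobp fell by 1.71, the mannose receptor gene Mrc1 by 0.93 and the chemokine receptor gene Cx3cr1 by 1.20. Only 4, 4 and 3 markers fell without mutant 1, 2 and 3, and Cx3cr1 lost its call when wild-type 3, mutant 1 or mutant 3 was left out (edgeR adjusted p up to 0.10). Divided by this sum, Lyz2 gave 0.278, 0.280 and 0.320 in wild-type libraries and 0.224, 0.256 and 0.236 in mutants, with no overlap. The part of macrophage number in the Lyz2 difference was not tested.

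**Figure D3:**
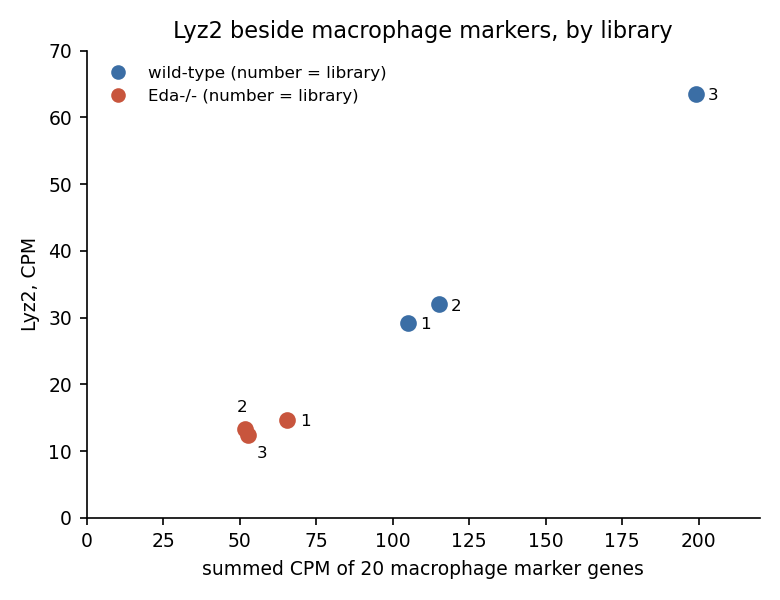
Lyz2 (vertical axis, CPM) against the summed CPM of 20 macrophage marker genes (horizontal axis), 1 point per library, numbered within its group. The mutants sit together at 51.8 to 65.6 on the horizontal axis, and wild-type 3 is highest on both.

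Ltf encodes lactoferrin, the iron-binding protein that starves bacteria of iron. The gene (ENSMUSG00000032496.7) lies on chromosome 9 at 111019271 to 111042767, plus strand. It had 667, 619 and 820.1 CPM in wild-type and 711, 808 and 722 in mutants. The groups intermixed, and the log2 fold change was 0.09 with a 95% interval of -0.13 to 0.30 (edgeR adjusted p = 0.622), a range of 0.917-fold to 1.23-fold. With library totals it was -0.19 (adjusted p = 0.19). Neutrophils also store lactoferrin, and their defining transcripts were near 0: S100a8, S100a9, Ngp and Ly6g had at most 1 count in any library, and Camp, Retnlg, Cxcr2 and Stfa2 had 0 in all of them. The summed level of the 17 neutrophil markers, most of it from Lcn2, was 3.67 to 6.41 CPM in wild-type and 2.43 to 4.09 in mutants. Of these markers 1 was tested, Lcn2, and it did not pass (log2 -0.51, edgeR adjusted p = 0.378, unadjusted p = 0.164, and 0 markers in DESeq2 or limma-voom). Without wild-type 3 the log2 value of Lcn2 was -0.03. Csf3r and Mmp9 were removed by the filter on low counts. In the fit without that filter they had log2 values of -1.47 and -0.44 and did not pass (edgeR adjusted p = 0.0946 and 0.756).

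Lpo encodes lactoperoxidase, which uses hydrogen peroxide to oxidise thiocyanate into a microbicidal product. The gene (ENSMUSG00000009356.12) lies on chromosome 11 at 87806428 to 87828289, minus strand. It had 1548, 1949 and 2247 CPM in wild-type and 2924, 1840.4 and 2399 in mutants. Mutant 2 lay inside the wild-type range, and the log2 fold change of 0.32 (95% interval -0.20 to 0.84) did not pass (edgeR adjusted p = 0.400). It passed only when genes with low counts were kept in the fit (adjusted p = 0.0346).

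The partners that feed lactoperoxidase were at the limit of detection. The peroxide-making oxidases Duox1 and Duox2 had 1 to 9 and 1 to 4 counts per library, and the thiocyanate and iodide carriers Slc5a5 and Slc26a4 had 0 to 2. The other peroxidases Mpo and Epx had 0 to 3 and 0 to 2 counts. Of 5 tested genes in the 19-gene peroxidase list, Cybb, the catalytic subunit of the phagocyte oxidase, fell by 1.13 on the log2 scale (edgeR adjusted p = 0.0128) and lost its call when mutant 1 or mutant 3 was left out (edgeR adjusted p up to 0.0739). The median of the 5 was -0.01. Catalase, encoded by Cat, had a log2 fold change of -0.01 (adjusted p = 0.974), and the cytosolic superoxide dismutase gene Sod1 had 0.14 (adjusted p = 0.381).

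Pigr encodes the polymeric immunoglobulin receptor, which takes up IgA at the base of epithelial cells and releases it with a piece of itself at the tip. The gene (ENSMUSG00000026417.13) lies on chromosome 1 at 130826684 to 130852249, plus strand. It had 239.8, 227 and 285 CPM in wild-type and 244, 230.4 and 295 in mutants, 2 nearly superimposed sets. The log2 fold change was 0.03 with a 95% interval of -0.19 to 0.26 (edgeR adjusted p = 0.873), a range of 0.875-fold to 1.20-fold. Its sign turned with library totals (-0.25), without wild-type 2 (-0.02) and without mutant 3 (-0.07), and it passed under none of the 19 alternatives.

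The chains of the antibody that Pigr carries differed more between libraries of a group than Pigr did. Igha, the heavy chain of IgA, had 24.1, 89.9 and 19.2 CPM in wild-type and 205, 81.3 and 133 in mutants. Wild-type 2 was above mutant 2, so the groups overlapped, and the log2 fold change of 1.65 did not pass (95% interval -0.53 to 3.82, edgeR adjusted p = 0.288). Jchain, which joins IgA into dimers, followed the same order of libraries within each group at 6.28, 27.6 and 5.57 against 50.7, 21.6 and 40.0 CPM (edgeR adjusted p = 0.328). The light chain gene Igkc had 5.72, 12.5 and 6.02 CPM in wild-type and 62.1, 23.1 and 42.4 in mutants, with no overlap. Its log2 fold change of 2.39 did not pass in edgeR (adjusted p = 0.071) and passed in DESeq2 (adjusted p = 0.000378) and limma-voom (adjusted p = 0.00233). Limma-voom also passed Igha (adjusted p = 0.0242) and Jchain (adjusted p = 0.032). Other genes of the same list lay lower in all 3 mutants without passing, Ighm, the heavy chain of IgM (-0.66, edgeR adjusted p = 0.151), and Sdc1, which encodes the plasma cell and epithelial surface proteoglycan syndecan (-0.21, 0.174). These 5 genes were chosen after their values were seen. Igha per Pigr was 0.0672 to 0.395 in wild-type and 0.353 to 0.838 in mutants, by CPM.

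Of 12 tested genes in the list of IgA transport and plasma cells 2 rose and 0 fell in edgeR (2 had lower values at an unadjusted p under 0.05, and 0 fell in DESeq2 or limma-voom), beside 6.21% and 6.90% of all tested genes. The 2 were Xbp1 (log2 0.28, edgeR adjusted p = 0.0462), a transcription factor of secretory cells of all kinds, and Derl3 (0.33, adjusted p = 0.0142), a gene of protein disposal in the endoplasmic reticulum. Neither is specific to plasma cells, and with library totals neither passed (edgeR adjusted p = 0.981 and 0.634). Of the list 1 gene was then higher and 4 lower, beside 247 and 4343 of all 13178 tested genes. Xbp1 also lost its call when wild-type 1 or 2, or mutant 1 or 3, was left out (edgeR adjusted p up to 0.161). Derl3 lost its call without mutant 3 (edgeR adjusted p = 0.0672), where 0 genes of the list rose. Ccl28, the epithelial chemokine that draws IgA plasma cells, had 236, 201 and 209 CPM in wild-type and 189, 241 and 207 in mutants (log2 -0.02, edgeR adjusted p = 0.913).

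**Figure D4:**
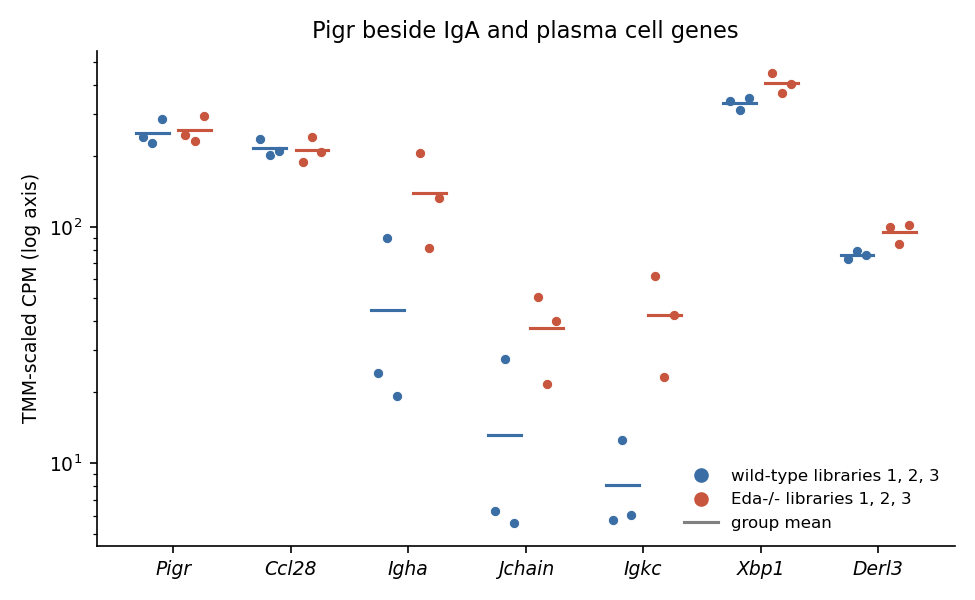
TMM-scaled CPM on a log axis for Pigr, Ccl28, 3 antibody genes and 2 secretory genes, 1 point per library in library order within each group and bars for group means. The points of Pigr and Ccl28 intermix, while wild-type 2 lies well above the other wild-type libraries for Igha, Jchain and Igkc.

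Car6 encodes the only secreted carbonic anhydrase, which sets the bicarbonate buffer of saliva and tears. The gene (ENSMUSG00000028972.11) lies on chromosome 4 at 150187015 to 150201332, minus strand. It had 1816, 1615 and 1085 CPM in wild-type and 2300.3, 2123 and 3488 in mutants. All mutants were above all wild-type libraries, but each group held 1 library far from its 2 fellows, low wild-type 3 and high mutant 3. The log2 fold change of 0.81 (SE 0.30, 95% interval 0.02 to 1.60, a 1.75-fold higher estimate) did not pass in edgeR (unadjusted p = 0.0466, adjusted p = 0.175). It was 0.63 without wild-type 3 and 0.56 without mutant 3. Limma-voom passed it (adjusted p = 0.0236), as did the edgeR fit that was not robust (0.025).

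The 15 other genes of the carbonic anhydrase family that were listed summed to 43.7 to 49.8 CPM in the 6 libraries. Of 7 tested, 2 rose and 1 fell, beside 6.21% and 6.90% of all tested genes. The mitochondrial enzyme gene Car5b rose from 16.3 ± 0.838 to 23.2 ± 0.988 CPM (SD, n = 3 each; log2 0.51, edgeR adjusted p = 0.00161) and the muscle and fat enzyme gene Car3 rose by 1.93 from 0.510 ± 0.165 to 1.99 ± 1.07 CPM (adjusted p = 0.00983). The membrane-bound Car12 fell from 25.2 ± 0.235 to 17.9 ± 2.87 CPM (log2 -0.49, adjusted p = 0.00751). Those calls held with each library left out in turn, and with library totals Car5b did not pass (0.23, adjusted p = 0.0855). On either side of Car6, the fructose transporter gene Slc2a5 at 42.8 kb rose by 0.34 (edgeR adjusted p = 0.00728, but 0.07 on the log2 scale with library totals) and the glycolytic enolase gene Eno1 at 35.4 kb fell by 0.71 (0.0029).

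Wfdc12 and Wfdc18 encode small secreted proteins with WAP domains, the fold of antibacterial and anti-protease peptides such as Slpi. Wfdc12 (ENSMUSG00000042845.7) lies on chromosome 2 at 164189231 to 164190608, minus strand, in a cluster of WAP genes. It had 566, 779 and 976 CPM in wild-type and 1688, 1047 and 742 in mutants. The groups overlapped and spread widely, with a coefficient of variation of 26.5% and 41.7%, and the log2 fold change of 0.58 (95% interval -0.51 to 1.68) did not pass (edgeR adjusted p = 0.447). Without mutant 1 it was 0.21. An antisense gene, A730032A03Rik, overlaps Wfdc12 and had 205 counts over all libraries against 77720 for Wfdc12, and without a stated strand setting the reads of the pair cannot be told apart.

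Wfdc18 (ENSMUSG00000000983.13), also named extracellular proteinase inhibitor, lies on chromosome 11 at 83709015 to 83711348, plus strand. It had 101, 97.1 and 116 CPM in wild-type and 169.5, 97.8 and 131 in mutants. Mutant 2 lay among the wild-type libraries, and the log2 fold change of 0.34 (95% interval -0.21 to 0.90) did not pass (edgeR adjusted p = 0.387). Without mutant 2 it was 0.53 and passed (adjusted p = 0.0149), and without mutant 1 it was 0.14 (adjusted p = 0.595). It also passed when genes with low counts were kept in the fit (adjusted p = 0.0121).

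Mutant 2 was the lowest mutant for Lpo, Wfdc18, Pip, Azgp1, Clu, Pigr and Car6, and mutant 1 the highest for Lpo, Lyz2, Wfdc12, Wfdc18, Pip and Clu. No library was on the same side of its group for all 10 genes.

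The rest of the WAP family was near 0. Of 21 other genes listed in the table, 3 had no counts (Wfdc10, Wfdc21 and Eppin), 2 were tested and edgeR passed 0, as did DESeq2 and limma-voom (0 had an unadjusted p under 0.05). These were Wfdc17, the neighbour of Wfdc18 at 2.7 kb, with 13 to 28 counts in wild-type and 6 to 12 in mutants, and Wfdc2, with 11 to 13 and 6 to 13 counts. The antileukoproteinase gene Slpi was counted 4, 4 and 2 times in wild-type libraries and 25, 3 and 8 times in mutants, most of them in mutant 1, and was removed by the filter on low counts. In the fit without that filter it was higher in mutants (log2 2.27, edgeR adjusted p = 0.000974).

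Clu encodes clusterin, an extracellular chaperone that holds unfolded proteins in solution and guards the ocular surface. The gene (ENSMUSG00000022037.14) lies on chromosome 14 at 65968483 to 65981547, plus strand. It had 28.0, 25.6 and 41.1 CPM in wild-type and 24.2, 13.7 and 23.2 in mutants. The highest mutant was just below the lowest wild-type library, and the log2 fold change of -0.63 (95% interval -1.42 to 0.17) did not pass (edgeR adjusted p = 0.275). Leaving out wild-type 3 gave -0.38 and leaving out mutant 2 gave -0.41, the highest wild-type and the lowest mutant library. Its neighbours Scara3 at 14.5 kb (-0.86, edgeR adjusted p = 0.0586) and Ephx2 at 102.8 kb (0.12, 0.696) did not pass.

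Levels between genes can be compared only per length, here as TPM, counts per exon base scaled to the same sum in each library. Pip led in every library at 3446 to 4408 TPM in wild-type and 3754 to 4677 in mutants. Wfdc12, Car6 and Lpo came next, with wild-type ranges of 680 to 1333, 632 to 930.1 and 459 to 759, and these neighbours overlapped in wild-type. Ltf followed at 175 to 252 TPM and Wfdc18 at 76.7 to 101. Pigr (55.2 to 74.9) and Azgp1 (53.1 to 56.4) overlapped in wild-type, while in mutants Azgp1 was lower, at 7.66 to 9.61 against 43.6 to 56.5. Lyz2 had 20.7 to 51.0 in wild-type and 7.29 to 9.23 in mutants, and Clu was lowest at 7.29 to 12.7 and 3.03 to 5.81. The order of the 10 group means was identical in wild-type and mutant glands, but Azgp1 and Lyz2, apart in wild-type, overlapped in mutants. Summed, the 10 genes held 1.5%, 1.64% and 1.79% of wild-type counts and 2.03%, 1.61% and 1.76% of mutant counts in libraries 1 to 3, of which Pip was the largest part.

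Of the wider list of secreted defence proteins, 14 of 42 genes in the table were tested, and 1 rose and 6 fell, beside 6.21% and 6.90% of all tested genes (median log2 fold change -0.79, and -0.58 without wild-type 3). Dmbt1, a scavenger receptor that clumps bacteria in saliva and tears, had the highest CPM of them, with 490.3, 511 and 445 CPM in wild-type and 359.9, 318 and 339 in mutants. No mutant reached the wild-type range (log2 -0.51, SE 0.081, edgeR adjusted p = 0.000672). Complement genes fell as well: C3, the central component, by 1.02 (edgeR adjusted p = 0.00914) and the C1 inhibitor gene Serping1 by 0.83 (0.00221), both on the log2 scale. Dmbt1, C3 and Serping1 passed under all 19 alternatives. Also lower, and named like Cst3 after their values were seen, were the collectin gene Sftpd (-0.60) and the matrix protein gene Mgp (-1.41). The 1 that rose was Cst3, the protease inhibitor cystatin C (0.68, adjusted p = 0.0299), which lost its call when wild-type 1 or 2, or mutant 3, was left out (adjusted p up to 0.0861) or with library totals (0.143). The number that fell was 4 without mutant 2 or mutant 3. The gut lectin gene Reg3b, the cathelicidin gene Camp, the defensin gene Defb2 and the trefoil gene Tff3 had 0 counts in every library.

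Duct epithelium is a further source of tear proteins. Of 13 tested duct markers edgeR passed 0 (4 had an unadjusted p under 0.05), and so did DESeq2 and limma-voom, where 13.1% of all tested genes passed in edgeR. Those with the highest CPM were the keratin gene Krt18 (-0.15), the ETS factor gene Ehf (-0.06) and Epcam (-0.20). With library totals 8 were lower, beside 4343 of all 13178 tested genes. With the GC and length offset 2 were lower, Krt18 (-0.21, edgeR adjusted p = 0.0332) and Epcam (-0.25, 0.0243). Without the filter on low counts 2 of 21 were lower. Their summed level was 807 to 854 CPM in wild-type and 747 to 803 in mutants.

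Among 5834 tested genes with a mean of 10 CPM or more, the patterns closest to those of 3 members over the 6 libraries were found by Pearson correlation of log2 CPM, a description that includes the difference between the groups. Closest to Azgp1 were the transporter gene Abcc4 (r = 0.9975), BC006965 (0.9962) and the coronin gene Coro2a (0.9951), which fell by 0.94, 0.75 and 5.51 on the log2 scale. Closest to Pip were Trak2 (r = 0.9950, log2 0.32, edgeR adjusted p = 0.0703), Coq5 (0.9949, which rose by 0.63 and had 0.35 with library totals, adjusted p = 0.0679) and Slc25a12 (0.9942, log2 0.26, edgeR adjusted p = 0.0494, against 0.169 in DESeq2). With library totals the sign of Slc25a12 turned (log2 -0.02, edgeR adjusted p = 0.875). Closest to Lyz2 were the lysosomal protease gene Ctss (r = 0.9991), the receptor gene Axl (0.9927, which fell by 0.87, edgeR adjusted p = 0.0208) and the pore-forming protein gene Mpeg1 (0.9900), of which Ctss and Mpeg1 are on the macrophage list.

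**Figure D5:**
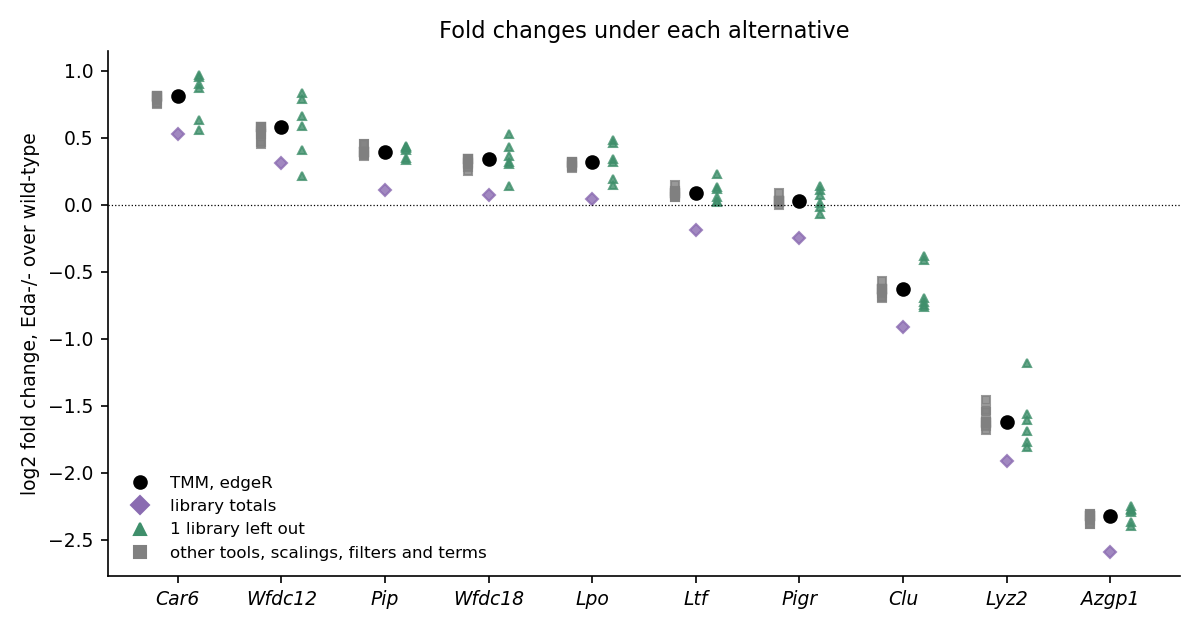
Log2 fold changes of the 10 genes after TMM scaling in edgeR (black), with library totals (diamonds), with 1 library left out (triangles) and under the other alternatives (squares). Ltf and Pigr lie around 0, Lyz2 moves to -1.18 without wild-type 3, and Azgp1 stays between -2.59 and -2.25.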

How the data were processed

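RNA-seq of whole lacrimal glands from 3 wild-type and 3 Eda-/- mice was deposited by the authors as raw counts per gene. Per the submitters' processing notes, bcl2fastq, Trimmomatic, STAR, featureCounts, DESeq2 and GRCm38.p5 were used. The sources used here do not give versions, annotation, strand setting or the treatment of multi-mapped reads. Gene IDs were matched to GENCODE names for GRCm38, for 50462 of 50686 IDs. Libraries held 11894395 to 15700899 counts, and 13178 genes passed the filterByExpr minimum of 10 counts. Counts were scaled by TMM and tested with edgeR 4.0.16 (R 4.3.3, robust quasi-likelihood test, two-sided, Benjamini-Hochberg adjustment over all tested genes, threshold 0.05), which was also tested on simulated data. Alternatives used DESeq2 1.42.0, limma 3.58.1, other scalings and filters, GC and length offsets, a replicate block and each library left out. Intervals are 95%. The samples are described as biological replicates. The p-values set the difference between the groups against the spread between replicates, estimated with information shared across genes.

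The 10 genes and the gene lists were chosen with earlier results of these data known. Named beside the 10 genes and Eda were up to 4 genes per list that passed, with the smallest p, or the 3 most abundant where none passed, the nearest gene on each side with 10 or more counts within 200 kb, and the 3 genes closest in pattern to each of the 3 members with the smallest p. Other list genes were chosen after their values were seen. One gene that this rule names is not reported here.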

Additional observations from a re-analysis of the deposited data

How the results depend on the processing

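Azgp1 kept its call under all 19 alternatives and Pip under all but library totals (log2 0.11), while removal of the 20 most abundant genes removed Pip itself. Of the tear defence genes 1 was higher, against 2 with limma-voom, with limma-voom with sample weights and with a fit that was not robust, 3 with no filter, 0 with library totals or without the 20 most abundant genes, and 1 to 2 with a library left out. Of them 1 was lower, against 2 with DESeq2, both limma-voom fits, library totals, the fit that was not robust, the replicate block and the block with the GC and length offset, and 1 to 2 with a library left out. The cause of these changes was not tested.

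With library totals 247 genes were higher and 4343 lower, so that 5.38% of calls were higher against 47.4% with TMM, and 38.1% with upper quartile scaling (618 and 1002). With a library left out 561 to 679 were higher and 599 to 834 lower, against 819 and 909. Over the companion lists 9 genes were higher and 20 lower, against 4 and 51 with library totals, 31 lower with no filter, and 6 to 10 higher and 11 to 23 lower with a library left out. The summed share of the 10 genes was 1.64% in wild-type (1.46% for the 9 genes left without the 20 most abundant genes, 1.57% to 1.71% with a library left out) and 1.80% in mutants (1.91% for those 9 genes, 1.69% to 1.90% with a library left out). Signs turned for Ltf with library totals (-0.19) and for Pigr with library totals (-0.25), without wild-type 2 (-0.02) and without mutant 3 (-0.07), within a range of -0.07 to 0.14 with a library left out.

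The labels do not say that equal replicate numbers mark a shared litter or day, and the deviations of same-numbered libraries correlated at -0.0355, 0.0211 and -0.0937. With the replicate block 712 genes were higher and 896 lower, Clu passed (log2 -0.64, edgeR adjusted p = 0.0115, and -0.70, 0.00163, with the GC and length offset as well), and 2 duct markers were lower (4 with the offset as well). Genes with fewer than 10 counts in every library, such as Duox1, could be compared only weakly at these depths.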
